A study of Mus musculus with 15 samples.

Results

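Transcripts of the proteasome subunit genes were measured by bulk RNA sequencing in the hippocampus of 3-month-old female mice. The genes were taken by name and not by any measured value. They are the protein-coding genes whose symbol joins *Psma*, *Psmb*, *Psmc*, *Psmd*, *Psme*, *Psmf* or *Psmg* with a number, without the immunoproteasome genes *Psmb8*, *Psmb9* and *Psmb10* and without pseudogenes. This gave 47 genes among the 55471 rows of the count table. Of these, 44 were tested, among 16171 genes with more than 1 CPM (the reads of a gene scaled to a fixed library size) in at least 3 libraries. *Psma8*, the alpha subunit of spermatoproteasomes in the testis, *Psmb11*, the beta subunit of the thymus, and *Psme2b*, a close relative of *Psme2*, did not pass, with 137, 140 and 464 reads in all 15 libraries together.

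The proteasome degrades proteins that carry ubiquitin chains. Its barrel, the 20S core, is built of alpha rings, which form the gate, and beta rings, which hold the proteolytic sites. The 19S cap recognises ubiquitin, removes it and unfolds the substrate with a ring of ATPases. Other activators can bind the barrel in place of the cap, and chaperones that leave the finished particle help to assemble it. In neurons the proteasome takes part in protein turnover at synapses, and its genes are known to be induced together by the transcription factor Nfe2l1 when proteasome activity is short. By role, the 44 tested genes were 7 alpha subunits, 7 beta subunits, 6 cap ATPases, 11 non-ATPase cap subunits, 4 activators, 7 assembly chaperones, the inhibitor *Psmf1*, and *Psmc3ip*, a factor of meiotic recombination that only shares the name.

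DM mice, the double mutants, carried both genotypes that follow and were made by crossing them. APP-TKI mice were homozygous for *App* NL-G-F, a knock-in of 3 Alzheimer's disease mutations into the endogenous mouse *App* gene. WT mice were C57BL/6JInv. These 3 groups formed batch 1, with 3 libraries each. ApoE4 mice were heterozygous for a knock-in of human *APOE4* (ApoE4+/wt) and formed batch 2 with their own WT group, again with 3 libraries each. DM mice were likewise heterozygous for *APOE4*. All comparisons were made within a batch, since batches were collected and sequenced apart. The methods give 3 mice for each group, so p-values measure the spread between mice. In bulk RNA, fewer cells of a type and less RNA per cell cannot be told apart.

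Libraries held 32754717 to 44630808 counted reads, and 8 hippocampal markers summed to between 999.9 and 1246 CPM in every library. Some libraries stood apart. In batch 1, DM replicate 1, APP-TKI replicates 1 and 2 and WT replicate 1 had 13586 to 15293 CPM of 7 nuclear noncoding RNAs, against 9157 to 10535 CPM in the other 5 libraries. In batch 2, the summed CPM of 5 striatal markers was 553 in ApoE4 replicate 3 and at most 98.0 in every other library of the series. That of 4 choroid plexus markers was 1906 in ApoE4 replicate 1 and 1595 in WT replicate 3, against at most 99.3 elsewhere, and 4 thalamic markers summed to 296 in WT replicate 3 and to at most 117 elsewhere. None of these 13 markers was at 0 in any library. The part of these differences in the results was not tested, and the results are given with and without these libraries.

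In the hippocampus of WT mice, transcripts of the subunits were measured at unequal levels. Per kb of exon, the 31 tested core and cap subunits spanned 8.70-fold in WT mice of batch 1 (means of 3 libraries). Length is the union of all annotated exons of a gene, so this span and the order of genes depend in part on the annotation. Without division by length, the means ran from 36.6 CPM (*Psmb5*) to 211.5 CPM (*Psmd2*). The highest level per length was that of *Psmc5*, a cap ATPase, with 81.1 CPM per kb, and the lowest that of *Psmd11*, a lid subunit of the cap, with 9.32 CPM per kb. The alpha subunits lay closer to each other, between 22.0 (*Psma2*) and 50.0 CPM per kb (*Psma6*), and so did the beta subunits, between 23.5 (*Psmb1*) and 55.9 CPM per kb (*Psmb4*). *Psmb1* was below *Psmb5* per kb (40.8 CPM per kb) but above it without division by length, with 107.8 against 36.6 CPM. Assembly chaperones were lower, with a median of 7.63 CPM per kb and a range of 0.874 (*Psmg3*) to 9.84 CPM per kb (*Psmg4*). Among the activators, *Psme3*, the nuclear activator PA28gamma, had the highest level with 28.0 CPM per kb. *Psme1* and *Psme2*, which form the interferon-inducible activator PA28alphabeta, had 12.2 and 10.4 CPM per kb. *Psme4*, the activator PA200, had 7.68 CPM per kb, and *Psmf1*, the inhibitor PI31, had 4.57 CPM per kb.

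**Figure D1:**
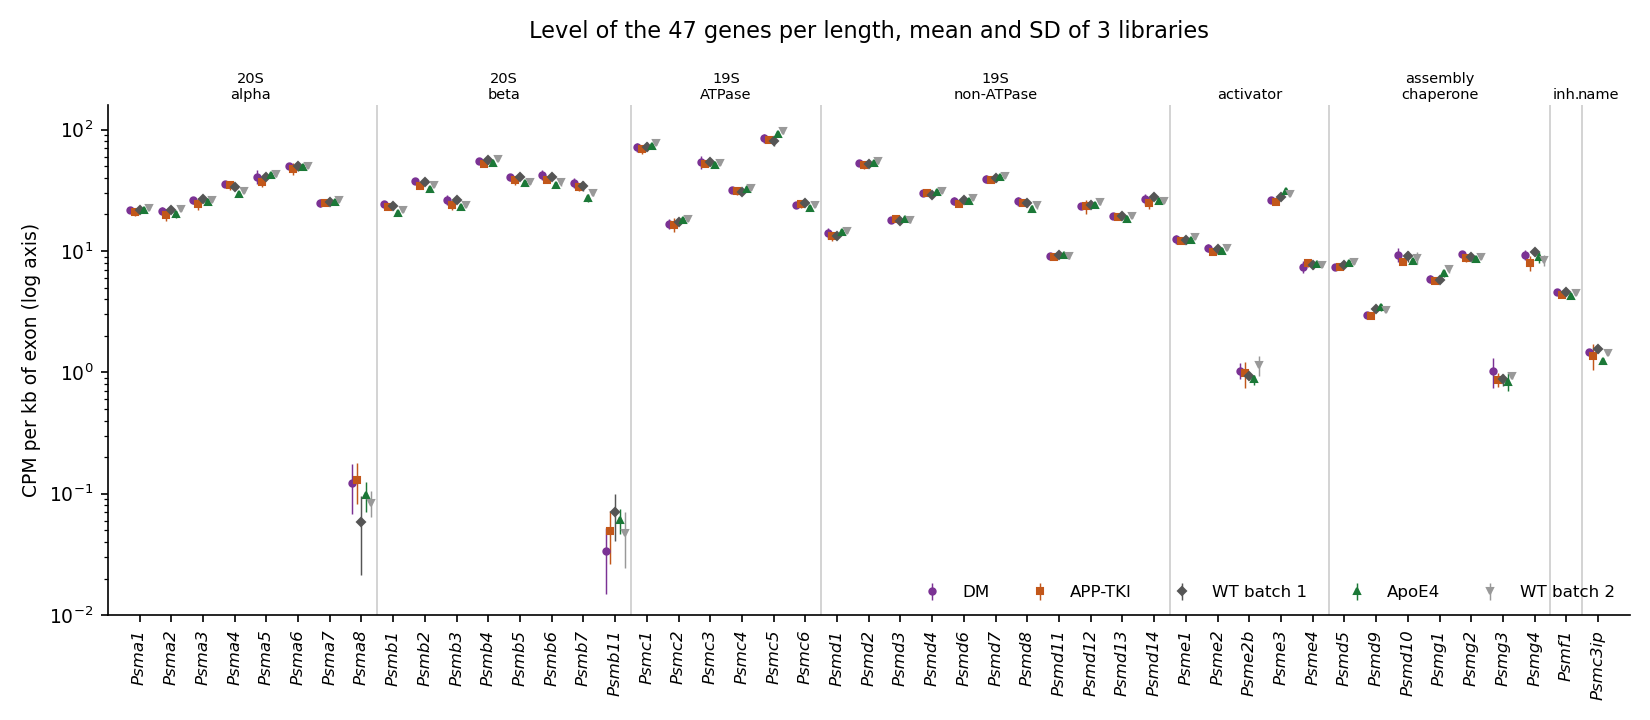
Level of each of the 47 genes in CPM per kb of exon on a log axis, by role, with points for the mean and bars for the SD of the 3 libraries of DM, APP-TKI, WT batch 1, ApoE4 and WT batch 2. The 5 points of a tested gene lie close together, while genes differ widely, from *Psmc5* with 81.1 CPM per kb in WT batch 1 to the untested *Psma8* and *Psmb11* near the bottom. The points of *Psma8* and *Psmb11* lie further apart. Inh. stands for the inhibitor *Psmf1* and name for *Psmc3ip*.

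These levels varied little among libraries of a group. The SD of log2 CPM within groups had a median of 0.0818 over the 44 genes and 0.129 over all tested genes. For 5141 tested genes in the CPM range of the core and cap subunits it was 0.0848. *Psme3* varied least, with an SD of 0.0458, and *Psmg3*, a chaperone of the alpha ring, varied most, with an SD of 0.237 at only 74 to 151 reads per library. Exons of 11 of the 44 genes overlap another annotated gene (among them *Psmb7*, *Psmb5*, *Psma4*, *Psmd3* and *Psmg3*). Reads of an antisense neighbour may be included, since no source used here gives the strand setting. Pseudogenes named after *Psmb5*, *Psmb6* and *Psmb7* held at most 2 reads in any library.

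Short stretches upstream of the start site are shown for genes named below, since proteasome genes are known to share promoter elements. A promoter window of 300 bases, 250 before and 50 from the start on, was found in RefSeq (GRCm38.p6) for 39 of the 47 genes. Capitals mark a match, lower case its surroundings, and all are written along the strand of the gene. The first 3 hold TGACNNNGC, the core of the antioxidant response element to which Nfe2l1 binds, the next 3 the ETS core CCGGAAG or its complement, and the last 2 the core GCGCANGCG of the nuclear respiratory factor Nrf1 or its complement.
Psmb6, chr11:70525327-70525356, plus strand: acagaggcggactaaagagagTGACGGAGC
Psmb5, chr14:54618023-54618052, minus strand: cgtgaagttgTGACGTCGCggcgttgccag
Psmd9, chr5:123228149-123228178, plus strand: atctagccggTGACCCCGCccacttccaag
Psmd2, chr16:20651615-20651644, plus strand: tccgcagggcgCTTCCGGtctggaggacaa
Psme3, chr11:101316095-101316124, plus strand: gggcacaaggcCCGGAAGctccgacagccc
Psme4, chr11:30771711-30771740, plus strand: gtggccccgccCCGGAAGtgacttgaggcc
Psma2, chr13:14613105-14613134, plus strand: ggcccctcttGCGCATGCGcaagggtcaaa
Psmd14, chr2:61711605-61711634, plus strand: aggcggcctgCGCGTGCGCtgtgtgctcct

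On both strands of these windows, TGACNNNGC was found in 6 of 39 genes (*Psmb5*, *Psmb6*, *Psmc6*, *Psmd9*, *Psmd12* and *Psme4*). That is 15.4%, against 14.0% of the 27025 genes in the RefSeq table. CCGGAAG was found in 15 genes, or 38.5%, against 9.93% of all genes. GCGCANGCG was found in 7 genes, or 17.9%, against 7.03% of all genes. In no gene did matches of different motifs overlap, and 4 genes held more than 1 of the motifs. The motifs were chosen after the windows had been looked at, and a match of letters is a description and not a binding site.

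No proteasome gene was called in any comparison. A call required an adjusted p under 0.1 (Benjamini-Hochberg, over the 16171 genes) in the quasi-likelihood test of edgeR. In DM minus WT, 0 of 44 genes were called, where 0.0124% of all tested genes were. In the other comparisons 0 of 44 were called as well, against 0.00618% of all genes in APP-TKI minus WT and 0% in DM minus APP-TKI, in ApoE4 minus WT and in the difference of the *APOE4* effects. DESeq2 and edgeR's robust likelihood ratio test also called 0 of these 44 genes in each comparison. These tests called more of all genes than the quasi-likelihood test did, namely 18 to 50 with DESeq2 and 50 to 136 with the robust likelihood ratio test, of 16171 in each comparison.

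Transcripts of the proteasome in DM mice were close to those in WT mice. The median log2 fold change of the 44 genes was -1.39e-05, against 0.0117 over all tested genes, with 22 genes higher and 22 lower. This split moved with single libraries. It was 34 higher and 10 lower without DM replicate 1, and 14 higher and 30 lower without WT replicate 1. Among the 20S and 19S subunits, the medians by role lay between -0.020 for the alpha and 0.017 for the beta subunits. They were -0.01 for the activators and 0.01 for the chaperones, and single values were 0.02 for *Psmf1* and -0.08 for *Psmc3ip*. The 95% interval lay within 1.2-fold of no change for 36 genes and within 1.5-fold for 43, all but *Psmg3*. At an unadjusted p under 0.05, 0 of 44 genes passed, against 4.55% of all genes. All libraries of DM mice lay above all libraries of WT mice for 0 of the 44 genes, against 7.29% of all genes, and below for 2 genes, against 3.14% of all genes. The smallest adjusted p was 0.999936. Without DM replicate 1, APP-TKI replicates 1 and 2 and WT replicate 1, the libraries rich in noncoding RNA, the median was 0.00838, with 26 genes higher and 18 lower. Markers of other cell types also differed in this comparison. All 5 endothelial markers were higher in DM mice (median 0.45 on the log2 scale, 4 at an unadjusted p under 0.05), as were all 4 ependymal markers (median 1.23, 4 at an unadjusted p under 0.05). Their summed CPM was 44.4 to 60.2 in DM and 33.2 to 38.8 in WT mice for endothelium, and 20.2 to 26.9 in DM and 9.71 to 13.5 in WT mice for ependyma. None of these 9 markers was at 0 in any library, and their part in the result was not tested. Fibroblast (4 of 4, median 0.44) and pituitary markers (3 of 3, median 3.21) were also higher, and 7 of 8 hippocampal markers were lower (median -0.11). In each of these lists 1 gene had an unadjusted p under 0.05. Among the hippocampal markers it was *Bok*, with 40.9, 48.8 and 45.7 CPM in DM mice, against 63.4, 69.9 and 69.4 CPM in WT mice. The part of these lists was not tested either.

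The catalytic subunits, named by role, differed from WT mice by less than their standard errors. *Psmb5*, the chymotrypsin-like subunit, had 33.6, 38.0 and 37.9 CPM in DM mice, against 35.3, 37.4 and 37.2 CPM in WT mice. *Psmb6*, the caspase-like subunit, had 70.7, 83.1 and 85.6 CPM in DM mice, against 71.7, 76.9 and 80.0 CPM in WT mice. *Psmb7*, the trypsin-like subunit, averaged 124.7 ± 12.1 CPM in DM mice and 117.8 ± 11.6 CPM in WT mice (SD, n = 3 each). In all 3 genes the groups overlapped, and DM replicate 1 was the lowest DM library. Their log2 fold changes were -0.01, 0.07 and 0.08, with standard errors of 0.078, 0.077 and 0.090. For the lid deubiquitinase *Psmd14*, the groups averaged 75.3 ± 7.6 CPM in DM mice and 78.6 ± 1.2 CPM in WT mice (SD, n = 3 each), and the log2 fold change was -0.06 ± 0.088 (SE). *Psmd2*, the large scaffold subunit of the cap base, and *Psmd4*, a ubiquitin receptor of the cap, differed by 0.02 ± 0.069 and 0.06 ± 0.057 (log2, SE).

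The 2 genes without overlap were an assembly chaperone and an activator. *Psmd9*, which helps to build the ATPase ring, had 21.5, 21.5 and 22.1 CPM in DM mice, against 25.0, 22.5 and 24.9 CPM in WT mice. All DM libraries lay below all WT libraries, though WT replicate 2 came near them. Its log2 fold change was -0.15 (95% interval -0.32 to 0.01, adjusted p = 1.00 by the quasi-likelihood test of edgeR). *Psme3* had 78.4, 79.1 and 76.1 CPM in DM mice, against 79.2, 83.6 and 84.9 CPM in WT mice, a log2 fold change of -0.08 (95% interval -0.21 to 0.04). Here too WT replicate 1 lay just above the highest DM library. *Psmg3* gave the largest value among the 44 genes, 0.24 ± 0.215 (log2, SE), and it rested on DM replicate 1. It had 3.89, 2.26 and 2.76 CPM in DM mice, against 2.26, 2.82 and 2.51 CPM in WT mice, and without DM replicate 1 the value was -0.01.

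In APP-TKI mice most proteasome genes were slightly lower than in WT mice, none beyond the threshold. Of the 44 genes, 37 were lower and 7 higher, with a median log2 fold change of -0.06, while 44.5% of all tested genes were lower and their median was 0.01. All 7 beta subunits were lower (median -0.09), as were 6 of 7 alpha subunits (median -0.08), all 7 assembly chaperones (median -0.06), 4 of 6 cap ATPases (median -0.04) and 8 of 11 non-ATPase cap subunits (median -0.03). The intervals stayed within 1.2-fold for 30 genes and within 1.5-fold for 42, all but *Psmg4* and *Psmc3ip*. Without adjustment, *Psmd9* and *Psme3*, both lower, had a p under 0.05, or 4.55% of the members, against 3.56% of all genes. Libraries of APP-TKI mice lay wholly below those of WT mice for 4 genes (*Psmd6*, *Psme2*, *Psme3* and *Psmg4*), against 3.56% of all genes, and wholly above for 0, against 4.71%. The smallest adjusted p was 0.999787. The unadjusted count moved with single libraries. It was 7 of 44 without APP-TKI replicate 3 (906 of all 16171 genes), and 0 of 44 without WT replicate 3 (377 of all genes). Ependymal (4 of 4, median 0.68), choroid plexus (4 of 4, median 0.62) and pituitary markers (3 of 3, median 2.04) were higher in APP-TKI mice. In each of these lists 0 genes had an unadjusted p under 0.05. Of 8 hippocampal markers 6 were lower (median -0.06), and 1, *Bok*, had an unadjusted p under 0.05. The part of these lists in the result was not tested.

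*Psmd9* had 20.6, 22.6 and 20.1 CPM in APP-TKI mice, against the 25.0, 22.5 and 24.9 CPM of WT mice given above. Only APP-TKI replicate 2 reached the lowest WT library. The log2 fold change was -0.20 (95% interval -0.36 to -0.03, adjusted p = 1.00 by the quasi-likelihood test of edgeR). *Psme3* averaged 75.4 ± 3.3 CPM in APP-TKI mice and 82.6 ± 3.0 CPM in WT mice (SD, n = 3 each), and its log2 fold change was -0.13 (95% interval -0.26 to -0.01). Its 3 libraries in APP-TKI mice lay below all WT libraries, but APP-TKI replicate 3 and WT replicate 1 were both at 79.2 CPM. *Psmg4*, a chaperone of the alpha ring, had 4.93, 4.66 and 3.73 CPM in APP-TKI mice, against 5.77, 5.03 and 5.59 CPM in WT mice. This was the largest difference of the comparison, -0.30 ± 0.144 (log2, SE). *Psmb3*, a structural beta subunit, had 54.0, 50.8 and 59.1 CPM in APP-TKI mice, against 57.3, 64.6 and 60.4 CPM in WT mice, and the groups overlapped (-0.15 ± 0.083, log2, SE).

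In batch 1 the level of the proteasome genes differed between libraries along with their nuclear noncoding RNA. The mean log2 CPM of the 44 genes was 5.60, 5.71 and 5.71 in DM mice and 5.60, 5.55 and 5.66 in APP-TKI mice, against 5.61, 5.70 and 5.70 in WT mice. Of the 9 libraries of batch 1, the 4 lowest were the 4 with the most nuclear noncoding RNA. Their means were 5.55 to 5.61, against 5.66 to 5.71 in the other 5 libraries, without overlap. APP-TKI held 2 of the 4, and DM and WT 1 each. Without these 4 libraries the median log2 fold change of APP-TKI minus WT was -0.02, with 31 genes lower and 13 higher, and it then rested on 1 APP-TKI library, assumed to vary like the other groups. It was -0.04 without APP-TKI replicate 2 alone and -0.10 without APP-TKI replicate 3, so that single libraries moved it by more than 1.5 times. How far the noncoding RNA content accounts for the lower values was not tested.

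**Figure D2:**
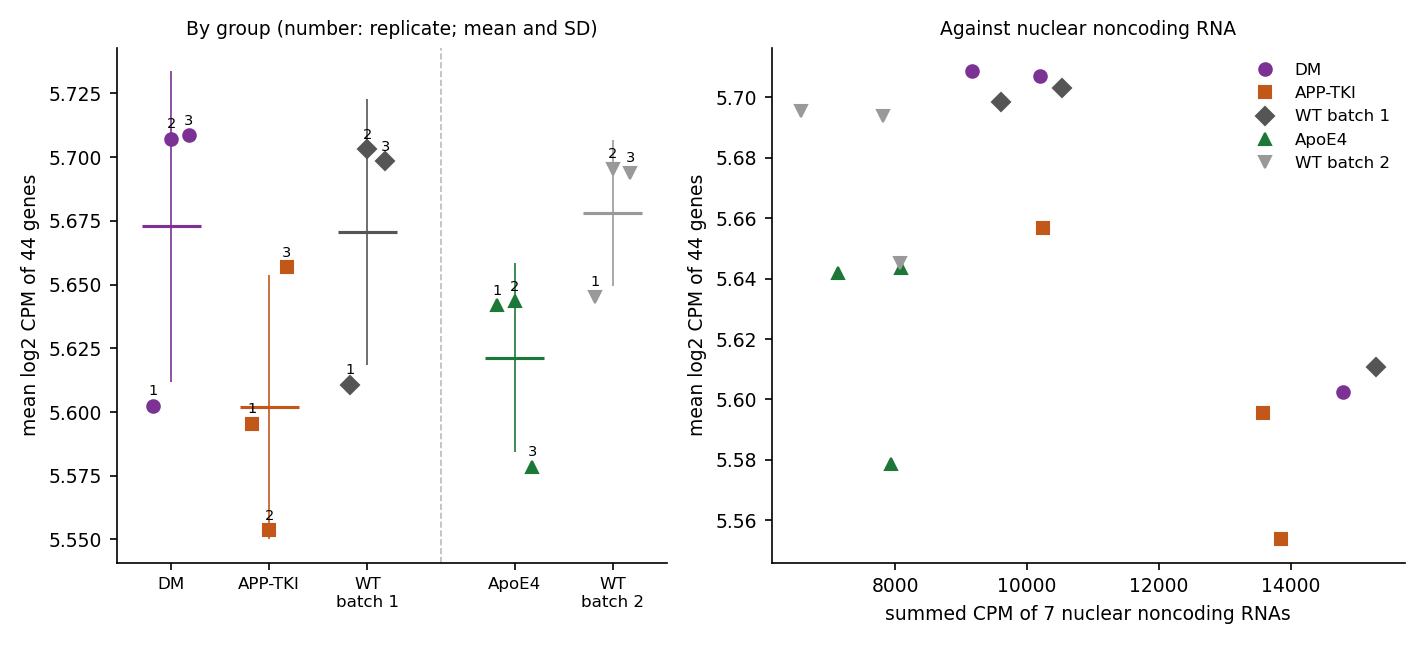
Mean log2 CPM of the 44 tested genes in each library, on the left by group with lines for mean and SD of 3 libraries and a dashed line between batches, and on the right against the summed CPM of 7 nuclear noncoding RNAs. In batch 1, the 4 libraries with 13586 CPM or more of noncoding RNA have the 4 lowest means, 5.55 to 5.61, and ApoE4 replicate 3 is the lowest of batch 2 with 5.58.

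Comparison of DM with APP-TKI mice gave values of the other sign, and it shares its APP-TKI libraries with the comparison above. Of the 44 genes, 40 were higher and 4 lower in DM mice, with a median log2 fold change of 0.06, against 0.0012 over all genes. All 7 alpha subunits (median 0.08), all 7 beta subunits (median 0.11) and all 7 chaperones (median 0.11) had positive values. The exceptions were *Psme4*, *Psmc6*, *Psmd3* and *Psmd4*. At an unadjusted p under 0.05, 0 of 44 genes passed, against 3.78% of all genes. For no gene did the groups separate, either above (5.03% of all genes) or below (2.9% of all genes). The smallest adjusted p was 0.987, and 27 intervals lay within 1.2-fold of no change. The unadjusted count was 9 of 44 without DM replicate 1 (1306 of all 16171 genes) and 6 without APP-TKI replicate 3 (1343 of all genes). Endothelial and fibroblast markers differed as well. All 5 endothelial markers were higher in DM mice (median 0.62 on the log2 scale, 4 at an unadjusted p under 0.05), with a summed CPM of 44.4 to 60.2 in DM and at most 36.9 in APP-TKI mice. All 4 fibroblast markers were higher (median 0.37, 1 at an unadjusted p under 0.05), with a summed CPM of 78.0 to 85.5 in DM and 39.7 to 84.0 in APP-TKI mice. None of these 9 markers was at 0 in any library, and their part in the result was not tested.

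The 4 genes with the smallest p in this comparison were *Psmb6*, *Psmb3*, *Psmb2* and *Psmd10*. *Psmb6*, whose promoter stretch is printed above, had 70.7, 83.1 and 85.6 CPM in DM mice, against 71.4, 69.1 and 74.7 CPM in APP-TKI mice. DM replicates 2 and 3 lay above all APP-TKI libraries, and DM replicate 1 lay among them. The log2 fold change was 0.15 ± 0.077 (SE, 95% interval -0.02 to 0.32). *Psmb2*, a structural beta subunit, had 42.8, 47.2 and 45.7 CPM in DM mice, against 43.0, 39.7 and 42.3 CPM in APP-TKI mice, a difference of 0.12 ± 0.066 (log2, SE). *Psmd10*, the ATPase chaperone gankyrin, had 11.8, 14.3 and 15.1 CPM in DM mice, against 12.8, 11.3 and 11.8 CPM in APP-TKI mice, or 0.19 ± 0.114 (log2, SE). Without the 4 libraries rich in noncoding RNA the median of the 44 genes was 0.05, and the comparison then rested on 1 APP-TKI library. The median was 0.11 without DM replicate 1 and 0.10 without APP-TKI replicate 3.

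**Figure D3:**
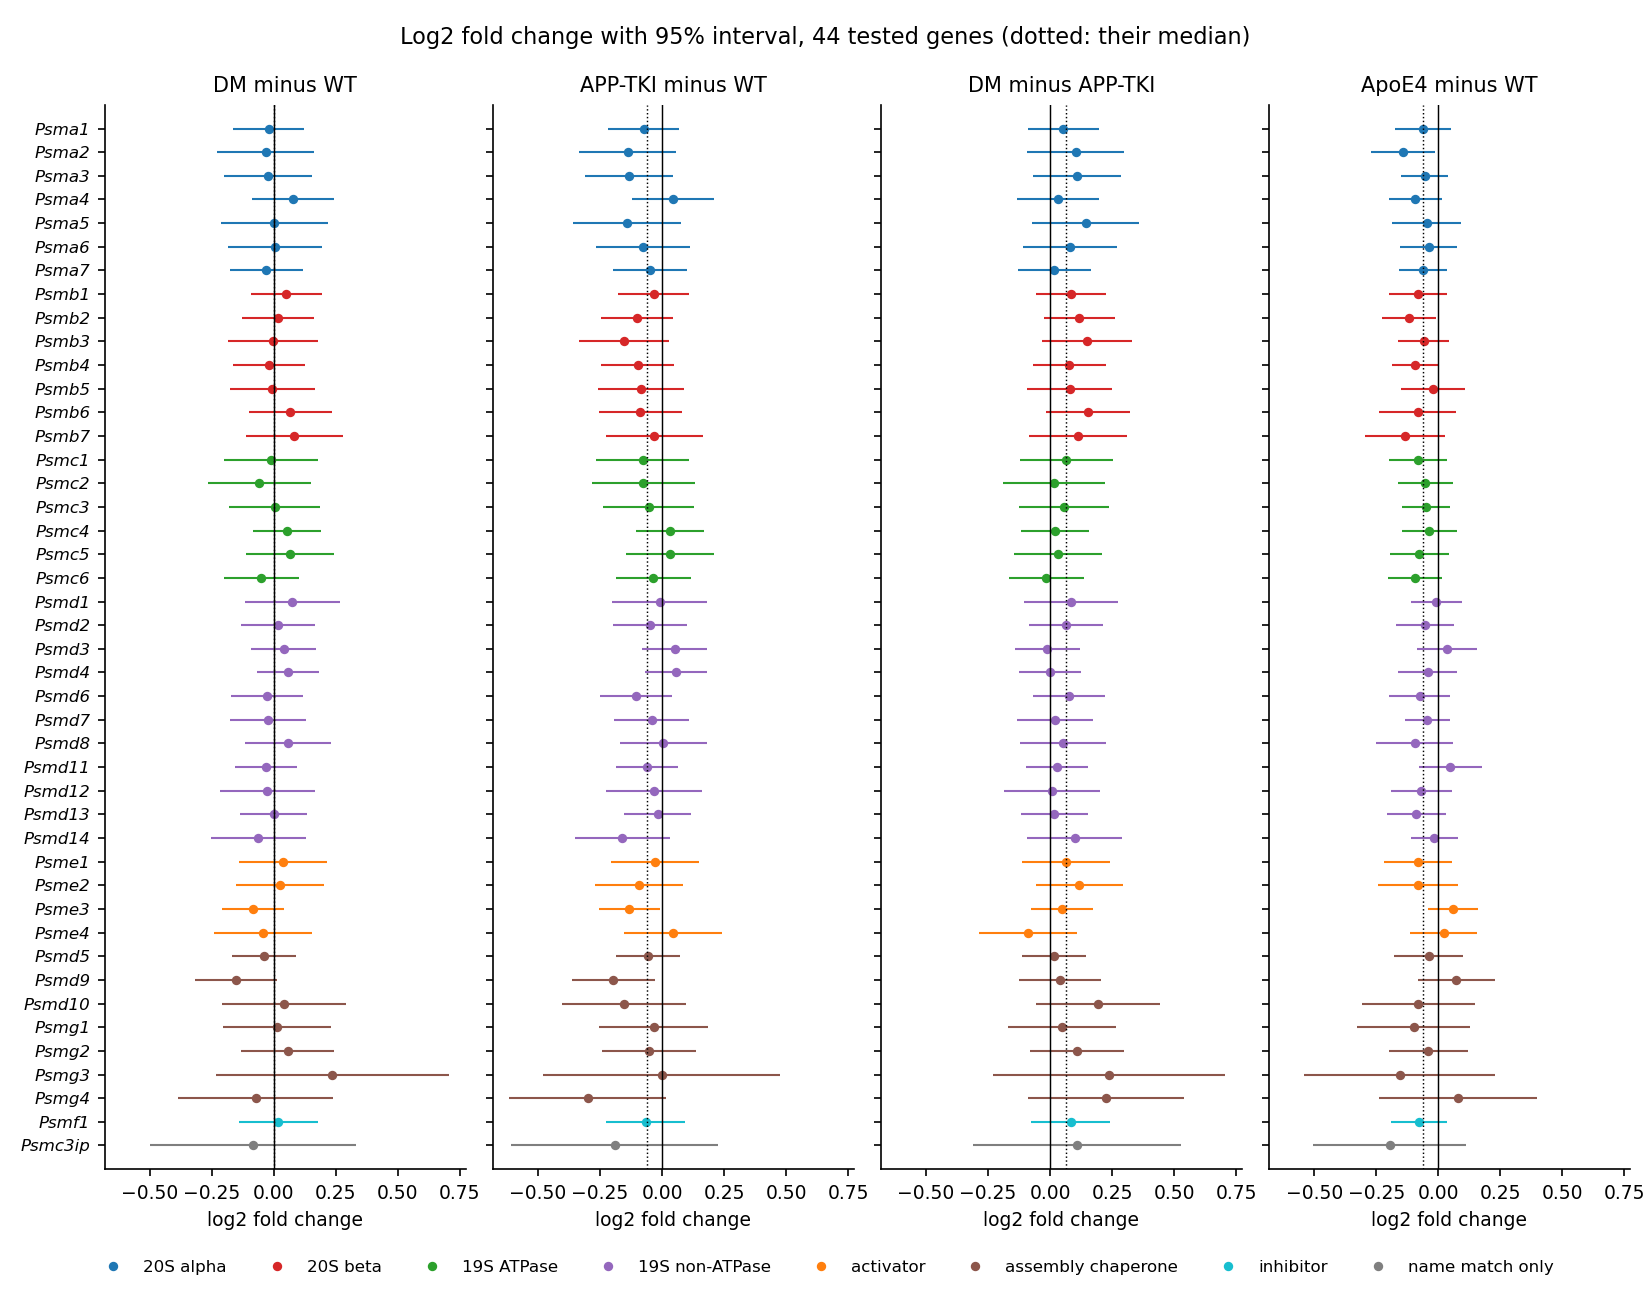
Log2 fold change (points) with 95% interval (lines) of the 44 tested genes in 4 comparisons, coloured by role, with a solid line at 0 and a dotted line at the median. The medians are close to 0 in DM minus WT, -0.06 in APP-TKI minus WT, 0.06 in DM minus APP-TKI and -0.06 in ApoE4 minus WT, and nearly all intervals include 0.

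Heterozygous *APOE4* without mutant *App* also went with slightly lower values. In ApoE4 minus WT, 38 of 44 genes were lower and 6 higher, with a median log2 fold change of -0.06. Of all tested genes 54.1% were lower, with a median of -0.01. All 7 alpha subunits (median -0.06), all 7 beta subunits (median -0.08) and all 6 cap ATPases (median -0.06) had negative values. Positive values were those of *Psmg4*, *Psmd9*, *Psme3*, *Psmd11*, *Psmd3* and *Psme4*, none above 0.08. Without adjustment, 2 genes, both lower, had a p under 0.05, against 5.99% of all genes. All ApoE4 libraries lay below all WT libraries for 8 genes (*Psma2*, *Psma4*, *Psma7*, *Psmb2*, *Psmb3*, *Psmb4*, *Psmf1* and *Psmc3ip*), or 18.2% of the members, against 6.79% of all genes. They lay above for 0, against 5.39% of all genes. The smallest adjusted p was 0.761, and all 44 intervals lay within 1.5-fold of no change, 37 of them within 1.2-fold.

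*Psma2*, an alpha subunit, had 76.0, 76.6 and 68.7 CPM in ApoE4 mice, against 78.8, 83.2 and 82.2 CPM in WT mice. ApoE4 replicate 3 was far below the other 2, and the groups did not overlap. The log2 fold change was -0.14 (95% interval -0.27 to -0.01, adjusted p = 0.761 by the quasi-likelihood test of edgeR). *Psmb2* had 40.2, 38.7 and 38.0 CPM in ApoE4 mice, against 42.2, 41.9 and 42.9 CPM in WT mice, a log2 fold change of -0.12 (95% interval -0.23 to -0.01). *Psmb4*, a structural beta subunit, averaged 104.5 ± 2.7 CPM in ApoE4 mice and 111.3 ± 1.3 CPM in WT mice (SD, n = 3 each), with a log2 fold change of -0.09 ± 0.040 (SE). *Psma4*, another alpha subunit, had 70.8, 70.7 and 66.4 CPM in ApoE4 mice, against 73.6, 75.5 and 72.6 CPM in WT mice (-0.09 ± 0.046, log2, SE). In each of these 4 genes ApoE4 replicate 3, the library with striatal markers, was the lowest of its group.

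**Figure D4:**
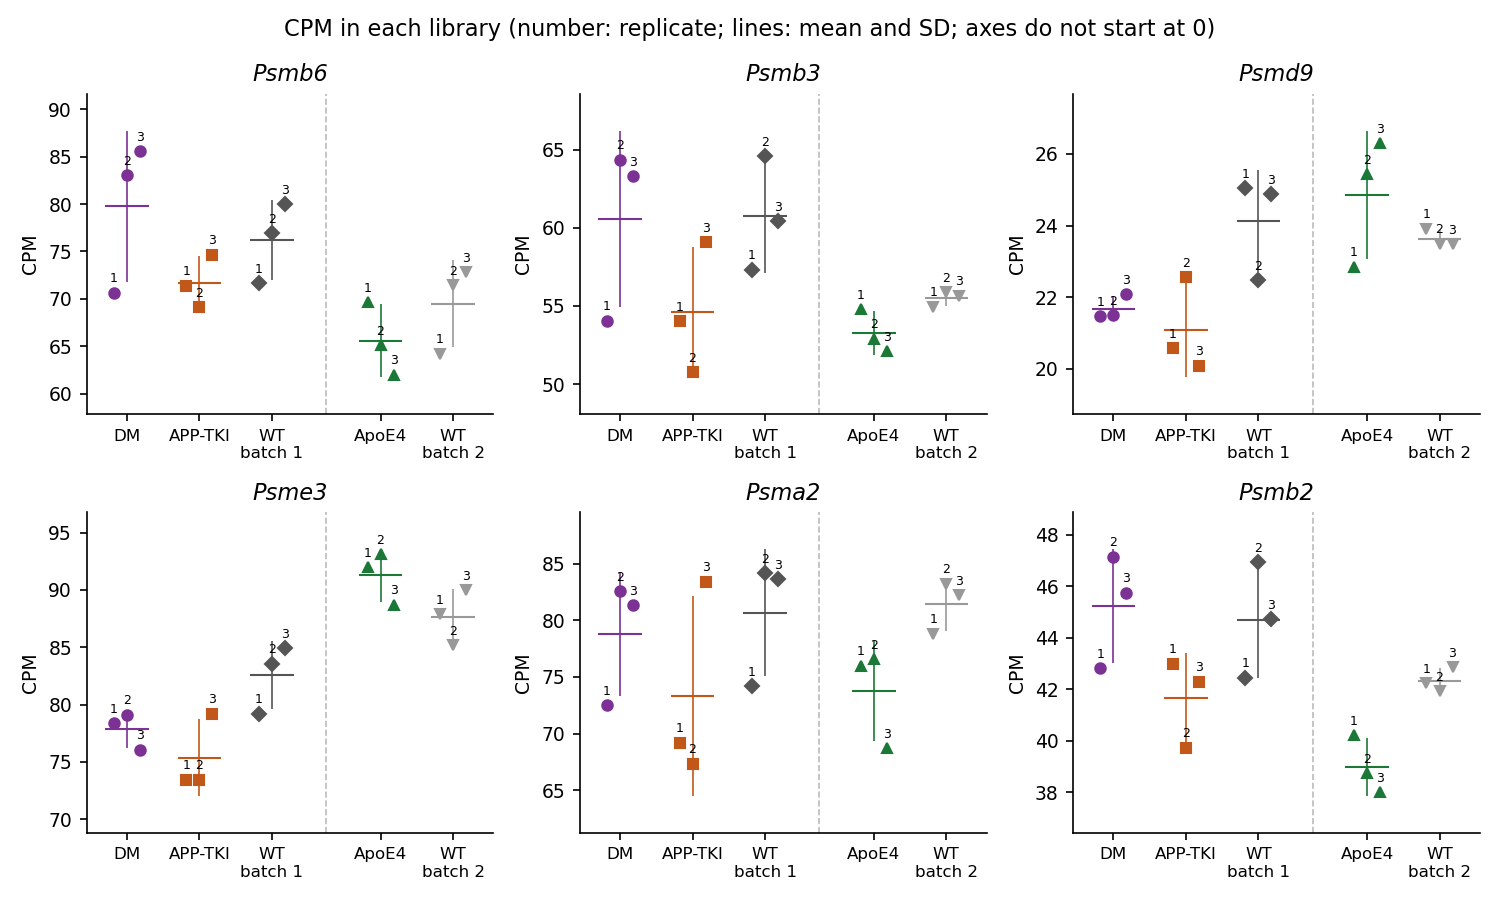
CPM of 6 genes in each library (points, with the replicate number), with lines for the mean and SD of 3 libraries and a dashed line between batches; axes do not start at 0. *Psmd9* and *Psme3* were on average lower in DM and APP-TKI than in WT of batch 1, *Psmb6* and *Psmb3* were low in DM replicate 1, and *Psma2* and *Psmb2* were lower in all ApoE4 libraries than in all WT libraries of batch 2.

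ApoE4 replicate 3 was the lowest library of its group for 75.0% of the 44 genes, against 36.4% of all tested genes. The mean log2 CPM of the 44 genes was 5.64, 5.64 and 5.58 in ApoE4 mice, against 5.65, 5.70 and 5.69 in WT mice. ApoE4 replicate 2, in which none of the marker lists was raised, lay just below WT replicate 1. Without ApoE4 replicate 3 the median of ApoE4 minus WT was -0.04. Without the 3 libraries with striatal, thalamic or choroid plexus markers it was -0.03, with 31 genes lower and 13 higher, and the comparison then held 1 ApoE4 library, assumed to vary like the WT libraries. At that setting 0 of the 44 genes passed an unadjusted p under 0.05, against 493 of all 16171 genes. That count was 0 of 44 also without ApoE4 replicate 3, WT replicate 2 or WT replicate 3 alone, and 3 without WT replicate 1. The 3 pituitary markers, *Prl*, *Gh* and *Pomc*, summed to 1.01 to 3.04 CPM in ApoE4 and 7.96 to 23.2 CPM in WT mice (median log2 fold change -3.31, 3 at an unadjusted p under 0.05), and 2 of them were at 0 in some library of the series. Their part in the result was not tested.

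Whether *APOE4* acted differently on a mutant *App* background was asked in a single fit of all 15 libraries, in which ApoE4 minus WT was subtracted from DM minus APP-TKI. The median of this difference over the 44 genes was 0.12, against 0.01 over all genes, with 39 genes positive and 5 negative. Most genes of other abundant complexes were positive as well, as given below. Among the 20S and 19S subunits the median was highest for the beta subunits, with 0.21, and was 0.13 for the alpha subunits and 0.09 for both kinds of cap subunits. It was 0.15 for the chaperones and 0.07 for the activators, and single values were 0.16 for *Psmf1* and 0.30 for *Psmc3ip*. Without adjustment, 3 genes had a p under 0.05, or 6.82% of the members, against 6.85% of all genes. They were *Psmb2* (0.24 ± 0.080), *Psma2* (0.25 ± 0.115) and *Psmb6* (0.24 ± 0.107; log2, SE), and the smallest adjusted p was 0.684. This unadjusted count was between 1 and 14 under the alternatives, with 14 of 44 without APP-TKI replicate 3 (1792 of all 16171 genes) and 13 without DM replicate 1 (1845 of all genes). It was 1 without APP-TKI replicate 2, DM replicate 2, DM replicate 3, ApoE4 replicate 3, replicate 2 of WT in batch 1, or replicate 2 or 3 of WT in batch 2. Endothelial markers (5 of 5, median 0.80) and pituitary markers (3 of 3, median 4.32) were positive too, and their part in the result was not tested. The median of the proteasome genes was 0.06 without the 7 libraries that stood apart in both batches, which left 1 APP-TKI and 1 ApoE4 library. In the full fit 10 of the 44 intervals lay within 1.2-fold of no difference.

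Across libraries, most of the genes varied together. After the mean of each batch was removed, the correlation of a gene with the mean of the others had a median of 0.74 over the 15 libraries, and 39 of 44 were positive. It was highest for *Psma2* (0.95), *Psmb4* (0.92) and *Psmb3* (0.92). These values describe libraries that share depth, composition and groups. Of 13867 other protein-coding genes, those most like the mean of the 44 were *Atp5b* (0.97) and *Atp5a1* (0.96), subunits of the mitochondrial ATP synthase, *Mdh2* (0.96), mitochondrial malate dehydrogenase, *Hint1* (0.96) and *Nap1l2* (0.96).

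Negative values were those of *Psme4* (-0.81), *Psmd3* (-0.72), *Psmd11* (-0.42), *Psmd9* (-0.16) and *Psmg4* (-0.09). *Psme4* had 70.3, 61.3 and 55.3 CPM in DM mice and 65.6, 70.9 and 62.6 CPM in APP-TKI mice, against 69.0, 64.5 and 59.5 CPM in WT mice. The 4 libraries rich in nuclear noncoding RNA were thus the 4 highest of batch 1 for *Psme4*, where they were the 4 lowest for the mean of all genes of the proteasome. Its fold changes were small in each comparison, between -0.09 and 0.04 on the log2 scale in batch 1 and 0.02 in ApoE4 minus WT. *Psmd3*, a subunit of the lid, ranged only between 83.4 and 95.8 CPM over the 15 libraries, with the highest value in WT replicate 1 of batch 2.

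**Figure D5:**
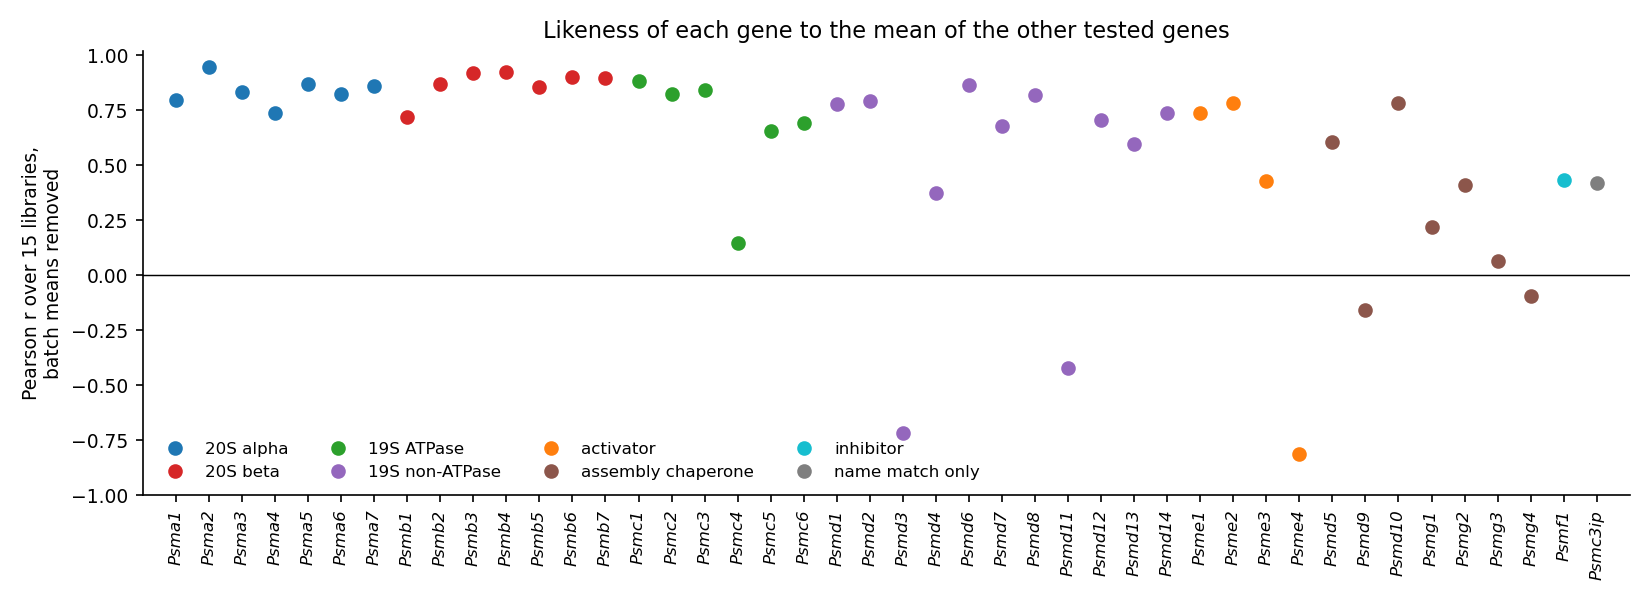
Pearson correlation of each of the 44 genes with the mean log2 CPM of the other 43, over 15 libraries with batch means removed, coloured by role. The 7 alpha and 7 beta subunits all lie above 0.70, while *Psme4* (-0.81) and *Psmd3* (-0.72) lie far below 0.

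Values of other abundant complexes are given for comparison. The 8 subunits of the Cct chaperonin, which folds actin and tubulin, had medians of -0.05 in APP-TKI minus WT, 0.04 in DM minus APP-TKI and -0.06 in ApoE4 minus WT. All 8 had the same sign in each of these. In DM minus WT 2 were higher and 6 lower (median -0.01). Of 81 subunits of the respiratory chain, 70 were lower in APP-TKI than in WT (median -0.08), 77 higher in DM than in APP-TKI (median 0.11) and 79 lower in ApoE4 than in WT (median -0.09). In DM minus WT, where 22 of the 44 proteasome genes were higher, 69 of these 81 were (median 0.07), as were 62 of 76 cytosolic ribosomal proteins (median 0.05). Without adjustment, 25 of the 81 respiratory chain genes had a p under 0.05 in DM minus APP-TKI, beside 0 of the 44 proteasome genes. In the difference of the *APOE4* effects, 79 of the 81 respiratory chain genes were positive (median 0.22). So were 73 of 76 cytosolic ribosomal proteins (median 0.13) and all 8 Cct subunits (median 0.11). No gene of these lists was called, and the lists were not tested against the proteasome genes.

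Some parts of the proteasome do not carry the name. *Pomp*, the maturation factor of the core, had 68.8, 67.5 and 61.3 CPM in ApoE4 mice, against 72.6, 73.3 and 72.8 CPM in WT mice. The groups did not overlap, and the log2 fold change was -0.15 (95% interval -0.27 to -0.02, adjusted p = 0.761 by the quasi-likelihood test of edgeR). *Pomp* differed by 0.07 in APP-TKI minus WT and by -0.01 in DM minus APP-TKI (log2), against medians of -0.06 and 0.06 over the 44 genes. *Sem1*, a small lid subunit, had 26.8, 29.4 and 28.9 CPM in DM mice, against 22.7, 23.6 and 26.7 CPM in APP-TKI mice, a log2 fold change of 0.22 ± 0.099 (SE). This was above the highest value of a core or cap subunit in that comparison, 0.15 for *Psmb6*. *Adrm1*, a ubiquitin receptor of the cap, differed by at most 0.06 on the log2 scale in any comparison within a batch.

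The 3 immunoproteasome subunits, which replace the catalytic ones after interferon, were not called, and *Psmb8* and *Psmb9* were low in the hippocampus. *Psmb8* had between 1.63 and 3.17 CPM and *Psmb9* between 0.408 and 1.37 CPM over the 15 libraries. *Psmb10* had 20.5, 22.7 and 25.3 CPM in DM mice and 24.5, 20.1 and 23.1 CPM in APP-TKI mice, against 20.6, 21.8 and 19.9 CPM in WT mice. The largest value of the 3 genes in any comparison within a batch was 0.67 ± 0.352 (log2, SE) for *Psmb9* in DM minus WT. *Psmb9* had 1.37, 0.937 and 1.03 CPM in DM mice, against 0.695, 0.889 and 0.523 CPM in WT mice. Its 3 DM libraries lay above all WT libraries, and the adjusted p was 1.00 by the quasi-likelihood test of edgeR.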

How the data were processed

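Total RNA of whole hippocampus was sequenced as poly(A) libraries in 15 samples. The deposited table holds whole-number counts of reads per gene. Per the methods and the submitters' processing notes, the authors trimmed with Trimmomatic 0.39, aligned with STAR 2.7.1a to GRCm38 with human *APOE* added and counted with HTSeq 0.11.2. Human and mouse *APOE* share 1 row, so that neither this row nor *App* checks the genotype labels. Of the gene IDs, 55230 matched GENCODE M21, an older release than the one the authors used.

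Here, counts were scaled by the upper quartile within each batch, filtered at more than 1 CPM in at least 3 of the 15 libraries, and tested with the quasi-likelihood test of edgeR 4.0.16 (R 4.3.3), each batch fitted on its own, and all 15 libraries for the difference of effects. P-values were adjusted over 16171 genes (Benjamini-Hochberg, threshold 0.1). CPM values are after scaling. Log2 CPM used a prior count of 1. Lengths are unions of annotated exons. Tables were made with Python 3.11.15 and figures with matplotlib 3.10.9. The steps were tested on simulated data. Alternatives were DESeq2 1.42.0, the robust likelihood ratio test, other scalings and filters, a replicate block and leaving out libraries. In DM and WT, same-numbered libraries deviated together (correlations 0.447, 0.195 and 0.301). Libraries of unlike number reached 0.115 in these groups, and 0.372 between ApoE4 replicate 2 and WT replicate 1 of batch 2. These values cannot show that numbers pair the libraries, and the labels do not say so.

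The genes named are the catalytic and key subunits, activators, inhibitor and chaperones by role, and the 4 members with the smallest p in each comparison. The members, gene lists and motifs were chosen with earlier results of these data known. *Psmd3*, *Psmd11* and others named for their correlations or lack of overlap were chosen after their values were seen.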

Additional observations from a re-analysis of the deposited data

How the results depend on the processing

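The call of 0 proteasome genes did not change in any comparison under the alternatives run (18 to 26 for each comparison), and the smallest adjusted p over them was 0.275. Calls over all genes did change. They numbered at most 2 of 16171 in the main quasi-likelihood fit, 18 to 50 with DESeq2 and 50 to 136 with the robust likelihood ratio test. In DM minus WT the quasi-likelihood test called 30 with only these 2 groups fitted, and 29 without APP-TKI replicate 2. With no filter they were 12 to 393 of 32419 to 36318 genes. Without the 4 libraries of batch 1 they were 131 in DM minus WT. In both comparisons with APP-TKI this setting left 1 APP-TKI library, so no count is given for them. Medians moved as follows. With 1 library left out at a time, the median log2 fold change of the 44 genes ranged from -0.03 to 0.04 in DM minus WT, so that its sign is not determined. It ranged from -0.10 to -0.04 in APP-TKI minus WT, from 0.04 to 0.11 in DM minus APP-TKI, from -0.08 to -0.04 in ApoE4 minus WT and from 0.0901 to 0.173 in the difference of the *APOE4* effects. That difference was highest without APP-TKI replicate 3. It fell to 0.0574 without the 7 libraries that stood apart, which left 1 APP-TKI and 1 ApoE4 library. This setting was chosen after the data were seen, as were those without the 4 libraries of batch 1 and without the 3 of batch 2. The cause was not tested. Of 16 single-gene values under 336 alternatives, 334 kept their sign. Exceptions were those of *Psmg3* in DM minus WT, with -0.00979 without DM replicate 1 and -0.0837 without the 4 libraries of batch 1. Its values with 1 library left out ranged from -0.00979 to 0.399. With the replicate block, medians were -0.0025 in DM minus WT, -0.06 in APP-TKI minus WT, 0.06 in DM minus APP-TKI, -0.06 in ApoE4 minus WT and 0.12 in the difference, and no call changed. Same-numbered libraries of other pairs of groups did not all deviate together, and the block joins libraries by number only. The depth limits *Psmg3*, *Psmg4* and *Psmc3ip* most, and *Psma8*, *Psmb11* and *Psme2b* were left out by the filter at 1 CPM. With no filter all 47 genes were tested in each comparison, and 0 were called.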

Other observations

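Factors around the proteasome gave no call either. Of 13 proteasome-bound factors, 0 were called in any comparison. *Uchl5*, a deubiquitinase of the cap, had 29.6, 35.6 and 31.9 CPM in DM mice, against 28.2, 29.6 and 27.0 CPM in WT mice, with a log2 fold change of 0.20 ± 0.090 (SE). DM replicate 1 and WT replicate 2 were both at 29.6 CPM. *Ubqln2*, which shuttles ubiquitylated proteins to the proteasome, differed by -0.10 ± 0.054 (log2, SE) in APP-TKI minus WT. Of 12 regulators of proteasome transcription, 0 were called. *Nfe2l1*, the factor that induces proteasome genes, had 268, 296 and 284 CPM in DM mice and 284, 273 and 290 CPM in APP-TKI mice, against 267, 289 and 284 CPM in WT mice, and the groups overlapped fully. *Nfe2l2*, its relative in the oxidative stress response, had 17.9, 14.5 and 14.6 CPM in DM mice, against 11.3, 14.0 and 12.3 CPM in APP-TKI mice, without overlap (0.33 ± 0.135, log2, SE, adjusted p = 0.987 by the quasi-likelihood test of edgeR).

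Median log2 fold changes of the proteasome genes with TGACNNNGC in their promoter window were -0.04 in DM minus WT, -0.06 in APP-TKI minus WT, 0.02 in DM minus APP-TKI and -0.04 in ApoE4 minus WT (6 tested genes). For the 31 tested genes with a window but without the motif they were -0.00145, -0.07, 0.07 and -0.06. These are descriptions of these libraries, and no difference was tested.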
